A study of Mus musculus with 3 samples.

Results

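The collagen chain genes are the genes whose array annotation symbol is Col, a type number, the letter a and a chain number, such as Col1a1. They were read in imLECs, lymphatic endothelial cells of mouse skin that had been immortalized, in 3 cultures. Of 18194 genes measured, 42 fitted that pattern, and 82 probe sets reported them, each assigned to 1 gene. Col28a1 and Col6a6, which carry such symbols in RefSeq, were not analysed here. By the class of their proteins, 11 of the 42 genes encode fibrillar chains, 8 encode basement membrane chains (types IV, XV and XVIII) and 23 belong to other classes.

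The cells were isolated by fluorescence-activated sorting from the skin of H-2Kb-tsA58 mice (ImmortoMice), whose transgene supplies a temperature-sensitive large T antigen. All 3 cultures were expanded at 33 °C with interferon-gamma on dishes coated with collagen and fibronectin, and then kept at 37 °C without interferon-gamma for 3 days. They form 1 group and were taken at passages 13, 14 and 18, with 1 culture and 1 array at each passage. The labels do not say whether the cultures came from 1 isolate and include no primary lymphatic endothelial cells and no cells kept at 33 °C, so values describe this immortalized line after the shift alone.

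Collagens are secreted proteins in which chains rich in glycine and proline wind around each other into a helix. Fibrillar chains are trimmed by proteases and align into the fibrils of connective tissue, whereas type IV chains join into the sheet that underlies endothelium and epithelium. The basement membrane of initial lymphatics is known to be thin and interrupted, and anchoring to the surrounding matrix helps to hold these vessels open.

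The measurements are signal intensities on a log2 scale, from 1 probe set for each gene, the one with the highest mean, and statements on the floor refer to that probe set. A gene was called detected where it lay above a floor on all 3 arrays. The floor of an array is the 95th percentile of the levels of 49 genes known from other tissues. The floors were 5.07, 5.10 and 5.68 at passages 13, 14 and 18. The floors depend in part on Syt1, a neuronal gene that read 5.2 at passage 13, where the floor was 4.87 without it. The passage 18 floor rests on Syt1, which read 6.4 there, and was 5.01 without it. The passage 18 array also had the highest ratio of 3' to 5' signal of Gapdh, a ratio that is higher where RNA is less intact. It was 19.4 there against 8.59 at passage 13 and 7.10 at passage 14. The same ratio for Actb was 1.18, 1.2 and 1.42 at passages 13, 14 and 18. The part of RNA quality in the differences between passage 18 and the other cultures was not tested. The arrays correlated with Pearson's r of 0.973 to 0.986 across all probe sets, which are not independent replicates.

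The endothelial label was checked on marker genes. Of 8 pan-endothelial genes, among them Cdh5 and Pecam1, 8 were detected. Of 7 lymphatic genes 4 were, among them Pdpn and Flt4, a share of 57.1% where 51.1% of all genes were. Lyve1, a hyaluronan receptor of lymphatic endothelium, read 10.43, 11.52 and 7.35 at passages 13, 14 and 18, and was lowest at passage 18. Prox1, the transcription factor of lymphatic identity, read 6.20, 5.11 and 5.60, which lay at the floor at passage 14 and under it at passage 18, but above the passage 18 floor without Syt1. Reln and Mmrn1 were below the floor on every array. Summed intensities at passages 13, 14 and 18 were 17642, 16691 and 12326.5 for the pan-endothelial genes and 9206, 7674 and 5439 for the lymphatic genes, both lowest at passage 18. Among the detected lymphatic genes Flt4, Lyve1 and Nrp2 were lowest at passage 18. Pdpn was instead lowest at passage 14, at 12.17, 10.92 and 11.86. Of chondrocyte and osteoblast, keratinocyte, Schwann cell and leukocyte genes 0 of 5, 0 of 5, 0 of 2 and 0 of 3 were detected, and Sox9, a transcription factor of chondrocytes, was above the floor at passage 18 alone. The keratinocyte gene Krt5 read 5.77, 5.68 and 5.64, above the floor at passages 13 and 14. It was just under the floor at passage 18, but above that floor without Syt1. The Schwann cell gene S100b read 4.79, 4.80 and 5.65, below the floor on every array but above the passage 18 floor without Syt1.

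Of the 42 collagen genes, 11 were detected (26.2%), where 51.1% of all genes were. The fibrillar class had 5 of 11 genes detected, the basement membrane class 4 of 8 and the other classes 2 of 23. A further 6 genes were above the floor on 1 or 2 arrays, and 25 were below it on all 3. At passage 18 the 5 detected fibrillar chains and Col6a1 were 2.06-fold to 4.67-fold higher than at passage 13, and at passage 14 these genes apart from Col3a1 were lower than at passage 13. The type IV chains Col4a1 and Col4a2 and the type VIII chain Col8a1 differed by less than 2-fold between any 2 cultures, and Col18a1 ran in the opposite order.

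**Figure D1:**
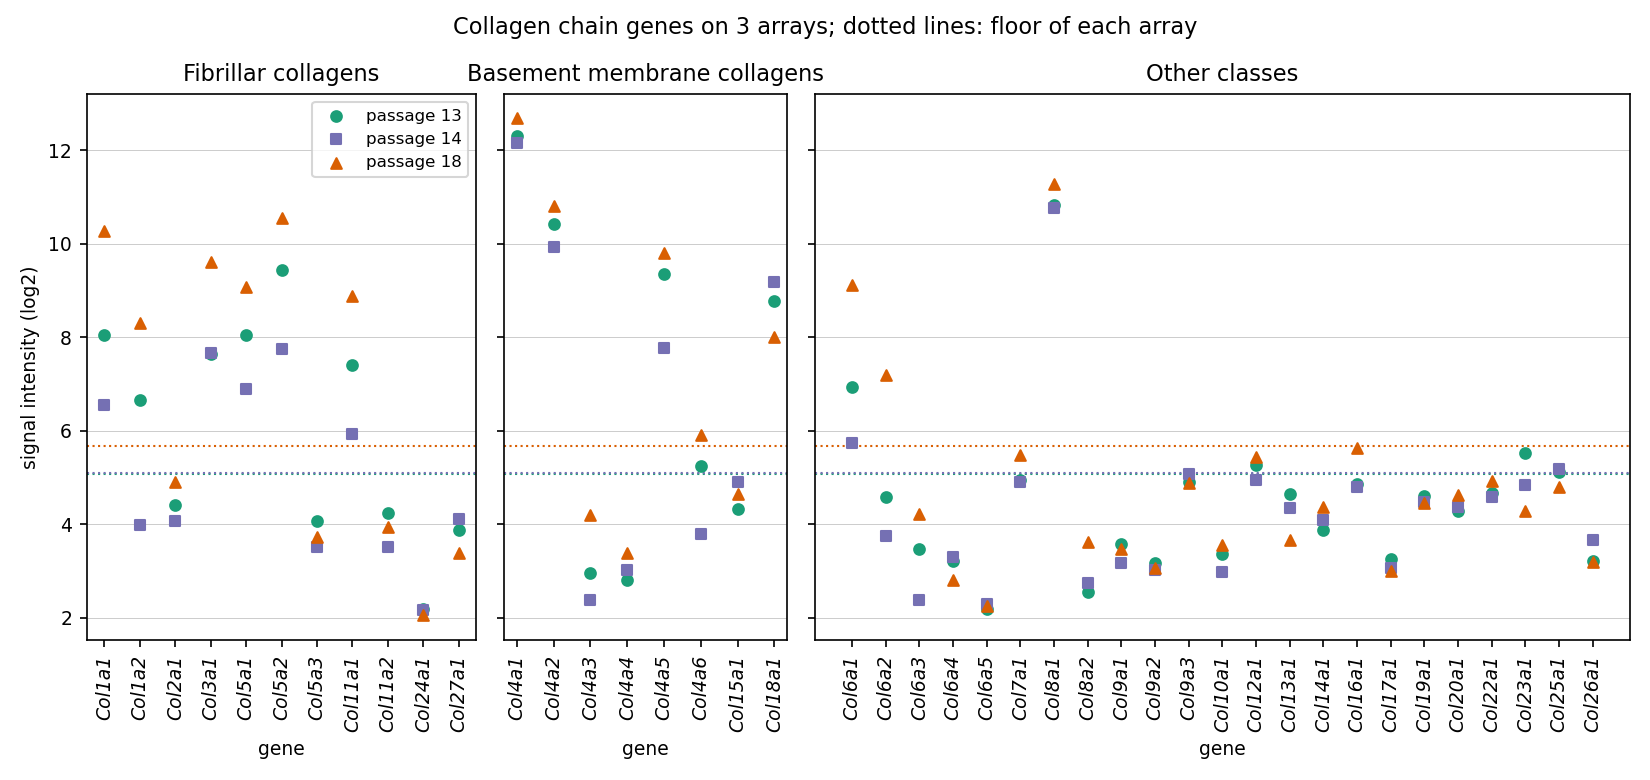
Signal intensity (log2) of all 42 collagen chain genes at passage 13 (circles), passage 14 (squares) and passage 18 (triangles), 1 array each, by class, with a dotted line at the floor of each array. Of the fibrillar genes 5 lie above the floor on all arrays, of the basement membrane genes 4 and of the other classes 2, and passage 18 is the highest point for 10 of these 11 genes.

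To set genes with large, small and opposite differences between cultures side by side, the bases before the annotated starts of 5 genes are printed, 5′ to 3′ on the gene's strand. They come from RefSeq, build GRCm38.p6, and hold only bases outside the annotated gene. Capitals mark the CCAAT box (CCAAT or its reverse complement ATTGG), the GC box bound by the Sp1 family (GGGCGG or CCGCCC) and a TATA box (TATAAA or TTTATA). Col1a2, Col3a1 and Col11a1 are fibrillar genes that were higher at passage 18, Col8a1 varied little, and Col18a1 was lower at passage 18.
Col1a2, chr6:4505368-4505617, plus strand: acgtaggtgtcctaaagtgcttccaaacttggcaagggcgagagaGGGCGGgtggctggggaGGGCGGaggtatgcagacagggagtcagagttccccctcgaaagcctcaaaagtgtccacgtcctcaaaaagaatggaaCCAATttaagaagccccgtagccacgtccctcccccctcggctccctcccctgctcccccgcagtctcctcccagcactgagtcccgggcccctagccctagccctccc
Col3a1, chr1:45311288-45311537, plus strand: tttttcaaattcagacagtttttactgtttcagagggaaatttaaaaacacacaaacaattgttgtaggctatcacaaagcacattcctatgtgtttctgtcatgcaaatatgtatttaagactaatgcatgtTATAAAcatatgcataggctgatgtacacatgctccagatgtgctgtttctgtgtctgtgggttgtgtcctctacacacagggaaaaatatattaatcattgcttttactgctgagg
Col11a1, chr3:114030290-114030478, plus strand: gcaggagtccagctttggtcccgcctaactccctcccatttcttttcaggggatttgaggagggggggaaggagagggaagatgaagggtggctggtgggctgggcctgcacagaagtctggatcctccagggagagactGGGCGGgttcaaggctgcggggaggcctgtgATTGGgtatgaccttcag
Col8a1, chr16:57754738-57754987, minus strand: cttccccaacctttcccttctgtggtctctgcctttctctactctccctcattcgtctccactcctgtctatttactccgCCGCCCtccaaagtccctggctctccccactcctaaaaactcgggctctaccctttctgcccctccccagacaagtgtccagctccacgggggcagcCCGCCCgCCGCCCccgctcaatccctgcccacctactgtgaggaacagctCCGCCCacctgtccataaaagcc
Col18a1, chr10:77166531-77166780, minus strand: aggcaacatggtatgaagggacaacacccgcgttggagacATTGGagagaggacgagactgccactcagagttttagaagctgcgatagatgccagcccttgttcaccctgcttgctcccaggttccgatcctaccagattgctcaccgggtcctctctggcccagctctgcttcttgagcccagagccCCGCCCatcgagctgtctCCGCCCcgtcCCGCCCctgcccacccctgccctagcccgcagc
No printed matches overlap, and 1 CCAAT box of Col1a2 and 1 GC box of Col11a1 lie in window bases that are not printed. Over the whole window of 300 bases, which runs from 250 before to 50 after the start, Col1a2 held 2 CCAAT boxes and 2 GC boxes. Col3a1 held only a TATA box, at position -117 from the start, and was 37.7% G and C, while the other 4 windows were 60.3% to 63.3%. Col8a1 held 4 GC boxes and no CCAAT box, and Col18a1 held 3 GC boxes and 1 CCAAT box here and none of the 3 motifs in its window at another start. The Col6a1 window held none of the 3 motifs.

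RefSeq promoters were matched for 33 of the 42 genes, with 36 windows, and Col1a1 and Col5a2 had no entry. A GC box was found in 61.1% of the collagen windows and 46.2% of 21262 windows of protein-coding genes, a CCAAT box in 36.1% and 38.2%, and a TATA box in 13.9% and 12.6%. The median share of G and C was 59.8% in the collagen windows and 56.3% in all, and the motif shares were not adjusted for it. Col4a1 and Col4a2 lie side by side on chromosome 8 and point away from each other, and their promoter windows share 78 of 300 bases. A motif match is only a description of the letters, and no measurement of factor binding was made.

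Type I collagen, the main fibril of skin, tendon and bone, is built from the chains of Col1a1 and Col1a2. Col1a1 read 8.04 at passage 13, 6.54 at passage 14 and 10.26 at passage 18 (8.28 ± 1.87, mean and SD over the cultures, n = 3). Its level at passage 18 was 4.67-fold that at passage 13, and its level at passage 14 was 2.83-fold below passage 13. Col1a2 read 6.65, 3.99 and 8.31 at the same passages, below the floor at passage 14. It was 3.16-fold higher at passage 18 than at 13, at least 2.93-fold lower at passage 14 than at 13, and at least 9.27-fold higher at 18 than at 14. These bounds set the floor in place of the value at passage 14. Both type I genes were thus lowest at passage 14 and highest at passage 18.

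Col3a1 encodes the only chain of type III collagen, which forms fibrils with type I in skin and vessel walls. Its levels were 7.63, 7.67 and 9.60 (8.30 ± 1.13). Passages 13 and 14 were nearly equal, 1.02-fold apart, and passage 18 alone was high, 3.90-fold above passage 13. Col3a1 was the 1 detected fibrillar gene that was not lower at passage 14 than at 13.

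Type V and type XI chains join the core of type I and type II fibrils and limit their diameter. Col5a1 read 8.04, 6.88 and 9.07 (8.0 ± 1.10), which was 2.06-fold higher at passage 18 and 2.22-fold lower at passage 14 than at passage 13. Col5a2, its partner chain, read 9.44, 7.75 and 10.55 (9.25 ± 1.41), with 2.17-fold and 3.21-fold differences in the same directions. Col11a1, best known from cartilage, read 7.40, 5.92 and 8.87 (7.40 ± 1.47), being 2.77-fold higher at passage 18 and 2.79-fold lower at passage 14 than at 13. All 3 genes followed the order passage 14, 13, 18. The cartilage gene Col2a1 and the genes Col5a3, Col11a2, Col24a1 and Col27a1 were below the floor on every array, with levels from 2.05 to 4.90, which set only an upper limit on the transcript.

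All 5 detected fibrillar genes were at least 2-fold higher at passage 18 than at passage 13, where 2.54% of all 9303 detected genes were. In the same class 4 of 5 were at least 2-fold lower at passage 14 than at 13, against 3.45% of all detected genes. The median log2 difference of the 5 genes was 1.47 for passage 18 minus 13 and -1.48 for passage 14 minus 13, and over all detected genes these medians were 0.00 and -0.02. Each passage is 1 culture, so these differences have no replicate check.

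**Figure D2:**
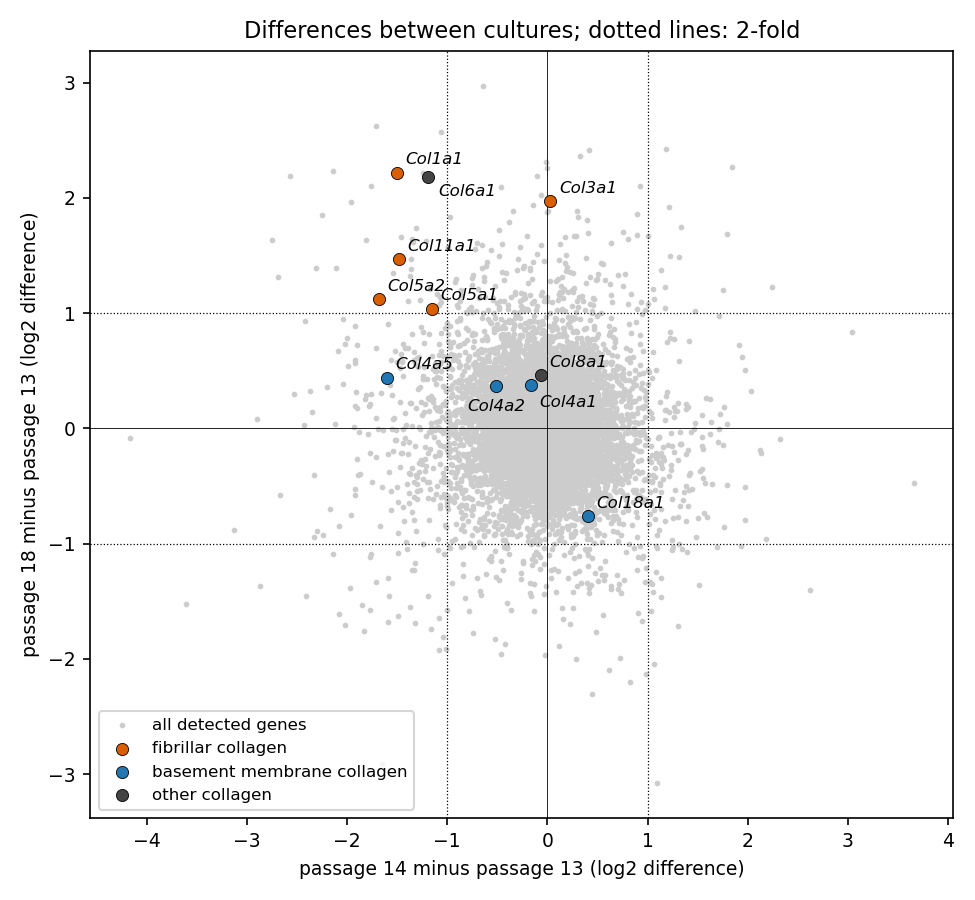
Log2 difference of passage 14 minus 13 (x axis) against passage 18 minus 13 (y axis) for all 9303 detected genes (grey) and the 11 detected collagen genes, coloured by class, with dotted lines at 2-fold. Both axes share the passage 13 array. The 5 fibrillar genes and Col6a1 lie above the upper 2-fold line, 3 type IV genes and Col8a1 lie below it, and Col18a1 is below 0 on the y axis.

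Genes of other matrix-producing cells were read beside the fibrillar chains. In bulk cultures, more cells of a type and more RNA per cell cannot be told apart. Of 12 fibroblast genes other than collagens, 4 were detected, and the summed intensities of the list were 4083, 2554 and 4416 at passages 13, 14 and 18. Prrx1, a mesenchymal transcription factor, and Mmp2, a metalloproteinase, were 3.36-fold and 2.43-fold higher at passage 18 than at 13, whereas Thy1 and Fbln1 were lower. Pdgfra, Dcn, Lum, Dpt, Fap and Pi16 were below the floor on every array, although Dcn (4.67, 3.39 and 5.50) passed the passage 18 floor without Syt1. Postn, a matrix protein of fibroblasts, read 3.98, 2.16 and 5.72 and was above the floor at passage 18 alone. Of the 4 detected genes, 0 had the order passage 14, 13, 18, which 26.5% of all detected genes had. Among the genes not detected, Dcn, Postn, Dpt, Fap, Pi16 and Lox had that order, and Pdgfra and Lum did not.

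Of 9 mural and smooth muscle genes 3 were detected, with sums of 6227, 1118 and 7441. Acta2, smooth muscle actin, read 10.52, 8.27 and 12.37, in the order passage 14, 13, 18. Tagln read 12.15, 9.27 and 10.78, lowest at passage 14 but highest at passage 13. Pdgfrb, a receptor of mural cells and fibroblasts, read 6.28, 6.04 and 7.69. Notch3, a receptor of mural cells, read 4.97, 4.54 and 6.03 and was above the floor at passage 18 alone, although it passed the passage 13 floor without Syt1. Rgs5, Cspg4, Cnn1 and Myh11 were below the floor on every array, although Cnn1 (4.34, 3.82 and 5.43) passed the passage 18 floor without Syt1. Des read 5.43, 5.13 and 4.92 and was above the floor at passages 13 and 14. Of the 3 detected genes, Acta2 and Pdgfrb had the order passage 14, 13, 18 and Tagln did not. Among the genes not detected, Notch3, Cnn1 and Rgs5 had that order, and Cspg4, Myh11 and Des did not. The part of any cell type in the collagen differences was not tested.

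Type IV collagen is the network of every basement membrane, and its most widespread form joins the chains of Col4a1 and Col4a2. Col4a1 read 12.30, 12.15 and 12.68 at passages 13, 14 and 18 (12.38 ± 0.28). Its neighbour Col4a2 read 10.43, 9.92 and 10.80 (10.38 ± 0.44). Passage 18 was 1.30-fold above passage 13 for Col4a1 and 1.29-fold for Col4a2. At passage 14 they were 1.11-fold and 1.42-fold below passage 13. No other detected collagen gene except Col8a1 had an SD as small as that of Col4a1 and Col4a2.

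The genes Col4a5 and Col4a6 are neighbours on the X chromosome, and their chains occur together in the basement membranes of smooth muscle and some epithelia. Col4a5 read 9.36, 7.77 and 9.81 (8.98 ± 1.07), so its level at passage 14 was 3.03-fold below passage 13, whereas passages 18 and 13 differed by 1.36-fold. Col4a6 read 5.24, 3.79 and 5.90, below the floor at passage 14 and less than 1 log2 unit above it elsewhere. The 2 genes shared a low value at passage 14. Col4a3 and Col4a4, the chains of the mature kidney glomerulus, were below the floor on every array, from 2.37 to 4.20.

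Types XV and XVIII are basement membrane collagens that carry sugar chains, and a fragment of type XVIII is endostatin, an inhibitor of endothelial growth. Col18a1 read 8.77, 9.17 and 8.01 (8.65 ± 0.59). It was highest at passage 14 and lowest at passage 18, 1.69-fold below passage 13 and 2.24-fold below passage 14. No other detected collagen gene had its lowest value at passage 18. Col15a1 was below the floor on every array, from 4.32 to 4.90.

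In the basement membrane class 0 of 4 detected genes were at least 2-fold higher or lower at passage 18 than at 13, which is near the 2.54% and 1.99% of all detected genes. The median log2 difference was 0.37, with a range from -0.76 to 0.44. Only Col4a5 passed 2-fold at passage 14. For passage 18 minus 13 the fibrillar class ranged from 1.04 to 2.22. The difference between the classes was not tested, because the genes were read in the same 3 cultures and are not replicates.

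Type VI collagen forms beaded filaments around cells and needs the chains of Col6a1, Col6a2 and a longer chain such as that of Col6a3. Col6a1 read 6.93, 5.74 and 9.11 (7.26 ± 1.71), 4.53-fold higher at passage 18 and 2.28-fold lower at passage 14 than at 13. Its neighbour Col6a2 read 4.57, 3.74 and 7.19 and was above the floor at passage 18 alone, at least 4.34-fold above passage 13 and 4.25-fold above passage 14. Both genes were high at passage 18. Col6a3 was below the floor on every array, at 3.46, 2.37 and 4.22, as were Col6a4 and Col6a5. Col18a1 lies near Col6a1 on chromosome 10, with 2 protein-coding genes between them, and had the opposite order of cultures.

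Type VIII collagen is a short-chain collagen of endothelial matrices and of the membrane beneath the corneal endothelium. Col8a1 read 10.82, 10.76 and 11.28 (10.95 ± 0.28), with 1.37-fold between passages 18 and 13. Col8a2, its companion chain, was below the floor on every array, from 2.55 to 3.62.

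The remaining 16 genes were not detected. The fibril-associated collagens of types IX, XII, XIV, XVI, XIX, XX and XXII, which attach to the surface of fibrils, had 0 of 9 genes detected, with levels from 3.02 to 5.62. Col12a1 was above the floor at passage 13 alone by its representative probe set, at 5.26, 4.94 and 5.43. Another of its 4 probe sets read 4.86, 1.94 and 6.31 and was above the floor at passage 18 alone. The representative probe set of Col12a1 and Col16a1, at 5.62 at passage 18, passed the passage 18 floor without Syt1. The transmembrane collagens had 0 of 4 genes detected: Col23a1 was above the floor at passage 13 alone (5.53, 4.83 and 4.29), Col25a1 at passages 13 and 14 (5.12, 5.18 and 4.80), and Col13a1 and Col17a1 on no array. Col7a1, the anchoring fibril of skin, Col10a1 of growth plate cartilage, and Col26a1 were below the floor on every array. Col7a1 read 4.94 at passage 13 and 5.47 at passage 18 and passed the floors of both arrays without Syt1.

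Across the detected collagen genes as a whole, 9 of 11 had their levels in the order passage 14, then 13, then 18, which 26.5% of all detected genes had. At least 2-fold higher at passage 18 than at 13 were 6 of 11, and 0 were at least 2-fold lower (1.99% of all detected genes were). At least 2-fold lower at passage 14 than at 13 were 6 of 11, and 0 were at least 2-fold higher (1.91% of all detected genes were). Counting differences of any size, 10 of 11 were higher at passage 18 than at 13, against 49.5% of all detected genes, and passage 14 was below passage 13 for 9 of 11, against 51.9%. Between passages 18 and 14, 7 were at least 2-fold higher, where 7.20% of all detected genes were, and Col18a1 was at least 2-fold lower, where 5.00% were. These comparisons share cultures and do not support each other. The median log2 difference of passage 18 minus 13 over the 11 genes was 1.04, and it was 0.50 with the floor at the 90th percentile of its reference genes, 0.44 with the floor at the 99th and 0.46 without probe sets that can share sequence with other transcripts. With the floor at the 99th percentile 7 genes were detected, of which 2 were at least 2-fold higher at passage 18 and 2 at least 2-fold lower at passage 14.

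The 11 detected genes had 11 further probe sets, from 9 of the genes, and all 11 had the sign of the representative one for passage 18 minus 13 and for passage 14 minus 13. The other Col1a1 probe set read 7.78, 5.99 and 9.72, a 3.82-fold difference between passages 18 and 13. The 2 further Col5a1 probe sets gave 2.15-fold and 1.65-fold, and the other Col5a2 probe set gave 2.86-fold. Sizes differed more than signs: the dim Col3a1 probe set, above the floor at passage 18 alone, read 3.50, 3.82 and 6.01. For Col18a1 the other probe set also had passage 14 highest and passage 18 lowest, at 8.21, 8.49 and 7.52. Of the 19 collagen probe sets that passed the floor 3 times, 16 had the order passage 14, 13, 18, and the rest were the 2 of Col18a1 and 1 of Col3a1.

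**Figure D3:**
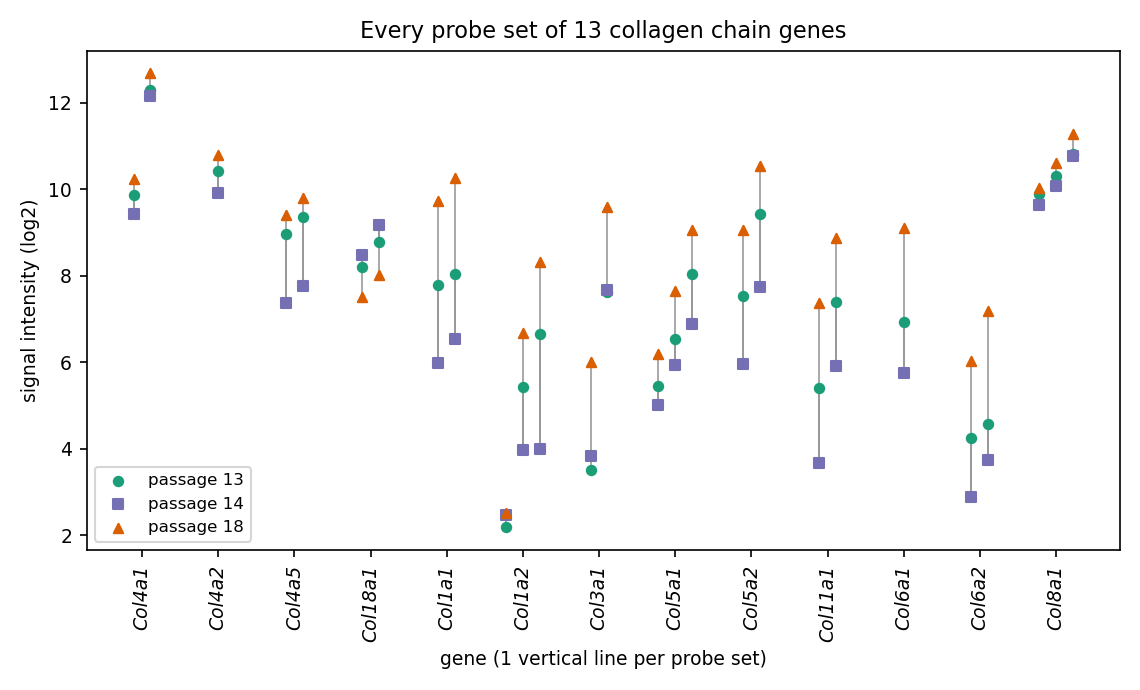
Signal intensity (log2) of every probe set of the 11 detected collagen genes and of Col1a2 and Col6a2, 1 vertical line for each probe set, at passage 13 (circles), 14 (squares) and 18 (triangles). Lines of the same gene differ in height, but the order of the cultures is the same within each gene apart from the lowest Col1a2 probe set, which is below the floor on every array.

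A trend with passage number was fitted to the 10121 genes above the mean floor with limma, and 0 passed at a Benjamini-Hochberg adjusted p under 0.05 (0% of those tested), with 3.56% at an unadjusted p under 0.05. Of 12 collagen genes fitted, 11 had positive slopes and Col18a1 a negative one, -0.19 ± 0.08 log2 units per passage (SE). Col3a1 had a slope of 0.42 ± 0.07 and Col6a1 of 0.55 ± 0.19, each with an adjusted p of 0.900 in limma. These 2 were the collagen genes with an unadjusted p under 0.05. Without the passage 18 culture the slopes were 0.03 for Col3a1 and -1.19 for Col6a1. The fit leaves 1 residual degree of freedom for each gene.

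Genes that make, process and bind collagen were read beside the chains, as a list of 56 genes in 6 roles, of which 51 were measured and 34 detected (66.7%, where 51.1% of all genes were). Of the 34, 3 were at least 2-fold higher at passage 18 than at 13 and 0 at least 2-fold lower, against 2.54% and 1.99% of all detected genes. At passage 14, 5 were at least 2-fold lower than at passage 13 and Pcolce at least 2-fold higher, against 3.45% and 1.91%. The median log2 difference of passage 18 minus 13 was 0.18, and that of passage 14 minus 13 was -0.19. Of the 38 genes fitted, 0 passed the limma trend at an adjusted p under 0.05, and Pcolce and Pcolce2 had an unadjusted p under 0.05, as 3.56% of all genes fitted did.

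The enzymes that hydroxylate and glycosylate the chains in the endoplasmic reticulum had 12 of 15 genes detected, with log2 differences from -0.46 to 0.78 between passages 18 and 13. Ppib, a prolyl isomerase that works in the prolyl 3-hydroxylation complex, read 12.46, 12.45 and 12.26. P4hb, a subunit of prolyl 4-hydroxylase, read 12.03, 11.67 and 12.17. P4ha2, a catalytic subunit of that enzyme, and Plod2, a lysyl hydroxylase, were at least 2-fold lower at passage 14 than at 13 (log2 differences of -1.03 and -1.17), genes named after their values were seen.

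Folding and secretion genes had 9 of 10 detected, with log2 differences from -0.44 to 0.36 between passages 18 and 13. Serpinh1, the collagen chaperone HSP47, read 11.72, 11.63 and 11.40. Sec23a, a coat protein of the vesicles that carry procollagen, read 10.98, 10.50 and 10.91. Neither of these 2 genes had the order passage 14, 13, 18, but 3 of the 9 detected genes of this role did. Over the whole biosynthesis list 14 of 34 detected genes had it, where 26.5% of all detected genes did.

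The genes of propeptide removal had 4 of 6 detected. Pcolce, which speeds the cleavage of the C-terminal propeptide of fibrillar procollagens, read 8.84, 10.06 and 10.76, 3.78-fold higher at passage 18 than at 13. Pcolce2, a related enhancer, read 7.81, 8.51 and 9.14, a 2.51-fold difference. Both had passage 13, not passage 14, as the lowest culture. Tll1, a protease of the Bmp1 family, read 9.13, 8.30 and 9.09.

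The cross-linking enzymes Loxl3 and Loxl4 read 9.75, 9.89 and 10.40, and 8.45, 8.31 and 8.75. Lox, also in the fibroblast list, is the founding lysyl oxidase and was named after its values were seen. It read 9.17 at passage 13, 3.30 at passage 14 and 9.30 at passage 18. It was below the floor at passage 14, at least 16.7-fold lower there than at passage 13. A second probe set gave 9.34, 3.14 and 9.20, and the remaining one was below the floor 3 times.

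Proteins that bind fibrils were represented by Sparc, a matricellular protein that binds collagen, at 13.07, 12.94 and 13.13, and by the proteoglycan gene Bgn at 11.96, 10.05 and 12.28. Bgn and Fn1, fibronectin, were at least 2-fold lower at passage 14 than at 13, Fn1 being named after its values were seen. Dcn and Lum, proteoglycans of fibroblast matrix, and Tnxb were below the floor on every array. Fmod, a related proteoglycan, was below it by its brightest probe set (4.88, 4.10 and 5.49), while another read 4.47, 3.77 and 6.08, above the floor at passage 18.

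Collagen receptors had 4 of 9 genes detected. Itgb1, the integrin chain common to all collagen-binding integrins, read 11.82, 11.51 and 12.16. Ddr1, a receptor tyrosine kinase for collagen, read 9.08, 7.72 and 10.55, 2.77-fold higher at passage 18 than at 13, in the order passage 14, 13, 18. Ddr2, its relative that prefers fibrillar collagen, named after its values were seen, read 7.38, 4.09 and 8.41. It was below the floor at passage 14 on both of its probe sets.

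**Figure D4:**
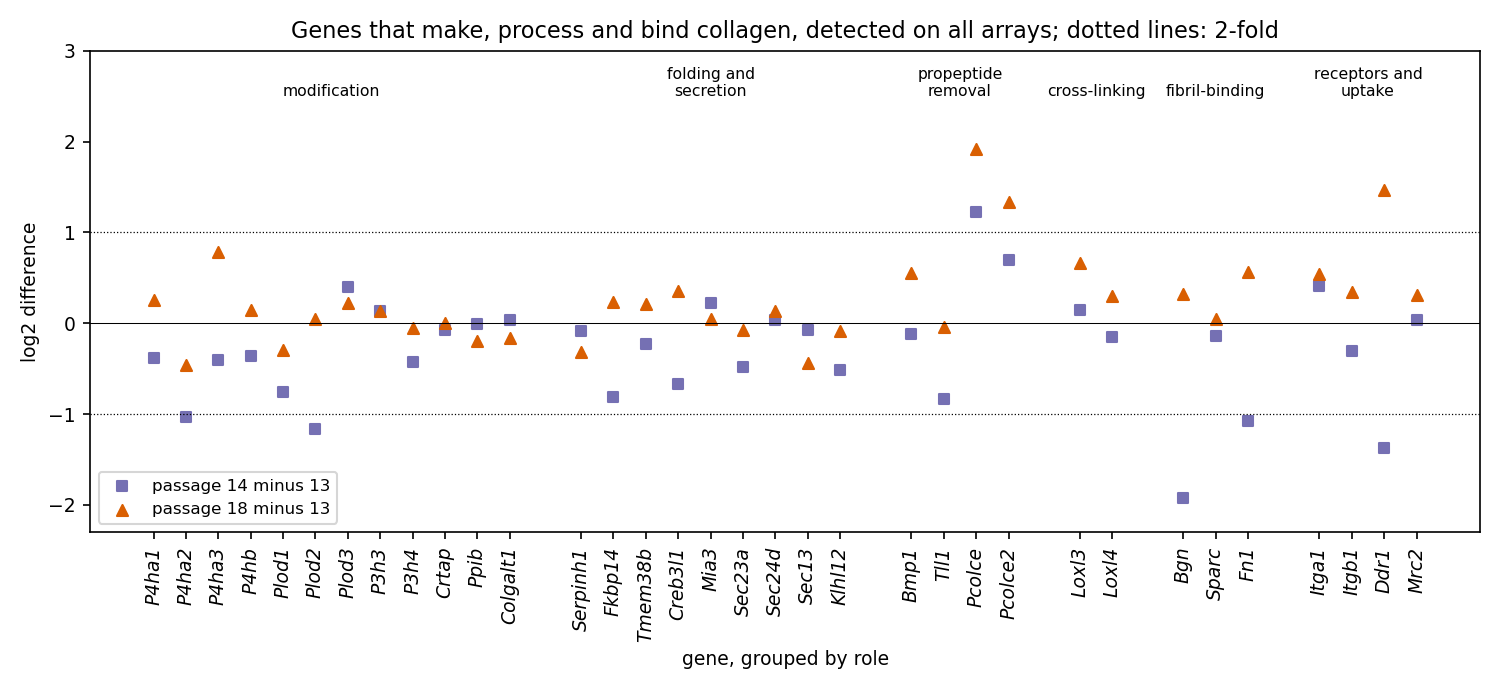
Log2 difference from passage 13 of the 34 detected genes that make, process and bind collagen, at passage 14 (squares) and passage 18 (triangles), grouped by role, with dotted lines at 2-fold. Pcolce, Pcolce2 and Ddr1 are above the upper line at passage 18, and P4ha2, Plod2, Bgn, Fn1 and Ddr1 are below the lower line at passage 14.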

How the data were processed

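RNA of 3 cultures was amplified by single-primer isothermal amplification and read on a 1-colour Affymetrix mouse array. The deposited table holds signal intensity values on a linear scale. MAS5 is named in the submitters' processing notes, without its role or version, and other upstream steps were not given in the sources used here. Median intensities were 25.7, 26.0 and 26.3 at passages 13, 14 and 18, so the values were not normalized again. Precision is limited by the number of arrays.

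Of 45101 probe sets, 34958 had 1 gene, 932 several and 9211 none. Symbols came from the platform annotation and were updated through Entrez identifiers to RefSeq genes of assembly GRCm38.p6 (34754 matched). Intensities were taken to log2, and each gene was represented by its brightest probe set. The floor rests on the levels of 49 genes known from other tissues (95th percentile), a list drawn up for this work, of which Apoa2 and Prm1 passed on all arrays. A fold change needed 2-fold between single arrays. The passage trend used lmFit and eBayes with trend from limma 3.58.1 (R 4.3.3) and adjusted by the Benjamini-Hochberg method. It was tested on simulated data, where it recovered changed genes at a small spread between cultures but none at the observed spread, so a count of 0 calls does not show that no gene changed. P-values measure only the spread among these cultures, which may be technical.

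Named genes were every detected collagen gene, and in each role of the biosynthesis list the 2 brightest detected genes and those 2-fold apart between passages 13 and 18. The members and lists were chosen with earlier results of these data known. Alternatives changed the floor, probe set, scaling, log offset, filter, contrast and cultures.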

Additional observations from a re-analysis of the deposited data

How the results depend on the processing

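With the floor at the 99th percentile of its reference genes, 7 collagen genes were detected in place of 11, 2 were at least 2-fold higher at passage 18 than at 13 in place of 6, and 2 were at least 2-fold lower at passage 14 than at 13 in place of 6. That floor removes the dimmer genes by its construction. The other 57 counts and medians stayed within 1.5 times of the main count or within the spread between cultures. For medians this spread was the median SD of the detected collagen genes, which was larger than the main medians of 1.04 and 0.37. A shift from 1.04 to 0.44 therefore counted as staying, so the label says little about the stability of the medians. Of the recomputed differences of single collagen genes, 110 of 110 moved by less than the SD of the gene over the cultures. That SD is itself made up of these differences, so it is a wide limit and says little about stability. The Col5a1 difference of passage 14 minus 13, for example, went from -1.15 to -0.60 with the median of its probe sets, which is under 2-fold. The 57 include an alternative chosen after seeing the data, the floor without Syt1. They also include the counts of the passage trend under 7 alternatives, which say nothing about stability. Values without passage 14 or without passage 18, for differences that do not use that culture, are among the 57 too. These repeat the main value and are no check of it. The count of genes passing the passage trend was 0 under each of 7 alternatives, with 372 to 711 genes at an unadjusted p under 0.05. This count says nothing about stability, because the trend called nothing on simulated data of this spread. Col3a1 had adjusted p-values from 0.630 to 0.945 in limma under them. Leaving out 1 culture in turn gave slopes from -1.19 to 0.84 for Col6a1 and from 0.03 to 0.48 for Col3a1. A trend over 2 cultures has no test, and a difference between 2 cultures has no value without either of them. No paired analysis was possible because the series has 1 group. Without replicates of a passage, a difference of 2-fold between arrays cannot be set against the spread at that passage, and values below the floor set only upper limits.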

Other observations

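Genes with a collagen-like domain outside the chain families, a list drawn up after the collagen values were seen, were mostly not detected: 4 of 27 measured genes (14.8%) were above the floor on every array, where 51.1% of all genes were. Colec12, a scavenger receptor of endothelium, read 5.81, 5.75 and 6.97 at passages 13, 14 and 18, which was 2.23-fold higher at passage 18 than at 13. Emilin1, a glycoprotein of elastic fibres that anchors lymphatic endothelium to its matrix, read 5.87, 6.69 and 6.44. Cthrc1, a secreted protein linked to collagen matrix, read 6.75, 7.08 and 6.83, and C1qtnf6 read 5.83, 5.77 and 5.99. Colec11, a soluble lectin, read 5.64, 4.72 and 6.32 and was above the floor at passages 13 and 18. Scara3, a scavenger receptor, read 5.03, 4.01 and 6.67 and was above it at passage 18 alone, although it passed the passage 13 floor without Syt1. C1qtnf2 read 5.11, 4.09 and 3.41, above the floor at passage 13 alone and lowest at passage 18. Ccbe1, a secreted factor needed for lymphatic growth, was above the floor at passage 14 alone (4.59, 5.28 and 4.35). The complement genes C1qa, C1qb and C1qc were below it on all arrays. In the limma trend 0 of the 5 genes fitted had an adjusted p under 0.05, and 1 had an unadjusted p under 0.05.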
